A study of Mus musculus with 32 samples.

Results

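Voltage-gated sodium channels were examined in the hippocampus of mice that carry a donor segment of the Sicd2 locus. The genes were taken by symbol: Scn1a, Scn2a (also as Scn2a1), Scn3a, Scn8a, Scn2b, Scn3b and Scn4b, and every feature annotated with exactly 1 of these symbols was used. Of the 7 genes, 6 were found, with 6 of the 16755 gene-level features and 64 of the 188590 exon-level probe sets. Scn2a was not analysed here, since no feature used here carried its symbol alone.

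Total RNA came from 16 male mice aged 6 to 8 weeks, 8 of the Sicd2-ISCL4 subcongenic line and 8 FVB-like littermates, with both hippocampi of a mouse combined and 1 exon array per mouse. Sicd2 is a chromosome 15 locus named for seizure-induced cell death, and a subcongenic line carries a shortened piece of such a locus from a donor strain. The labels record no seizure and no treatment in either group. The 32 samples are these 16 mice, each with a gene-level and an exon-level summary of the same array.

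Voltage-gated sodium channels open on depolarisation and carry the rising phase of the action potential. Each channel has 1 large alpha subunit, which forms the pore and its gates, together with smaller beta subunits, single-pass membrane proteins of the immunoglobulin fold that adjust gating and surface density. In the brain the alpha subunits differ by cell and age. The Scn1a channel is best known from the axons of inhibitory interneurons, where its loss causes epilepsy. The Scn8a channel dominates the axon initial segment and nodes of Ranvier of adult neurons, and the Scn3a channel is mainly embryonic and neonatal. The Scn2b and Scn4b subunits are bound to the pore by a disulfide bond, whereas the Scn3b subunit binds without one.

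Scn1a and Scn3a lie on chromosome 2, Scn2b, Scn3b and Scn4b on chromosome 9, and Scn8a on chromosome 15, the chromosome of Sicd2. Promoter windows from 250 bases before to 50 bases after a transcript start (RefSeq, GRCm38.p6) were found for 5 of the 7 genes, in 7 windows. Shown are that of Scn8a because of its chromosome and those of Scn2b and Scn4b, because these beta subunit genes are neighbours with windows that differ in CG content. Capitals mark CG dinucleotides, the sites of DNA methylation, and each sequence runs 5′ to 3′ on the plus strand.
Scn8a, chr15:100870395-100870694: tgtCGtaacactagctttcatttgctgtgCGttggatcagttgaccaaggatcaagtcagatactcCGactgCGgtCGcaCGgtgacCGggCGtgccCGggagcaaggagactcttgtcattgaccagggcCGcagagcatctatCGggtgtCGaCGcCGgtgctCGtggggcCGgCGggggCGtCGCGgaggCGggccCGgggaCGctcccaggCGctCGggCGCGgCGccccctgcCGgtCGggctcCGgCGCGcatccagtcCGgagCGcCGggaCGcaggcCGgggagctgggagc
Scn2b, chr9:45117626-45117925: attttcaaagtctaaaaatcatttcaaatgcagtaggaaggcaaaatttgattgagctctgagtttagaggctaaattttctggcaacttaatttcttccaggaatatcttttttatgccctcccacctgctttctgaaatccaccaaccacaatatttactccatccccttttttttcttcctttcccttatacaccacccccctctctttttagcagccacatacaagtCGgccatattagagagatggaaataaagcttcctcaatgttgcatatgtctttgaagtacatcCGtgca
Scn4b, chr9:45138374-45138673: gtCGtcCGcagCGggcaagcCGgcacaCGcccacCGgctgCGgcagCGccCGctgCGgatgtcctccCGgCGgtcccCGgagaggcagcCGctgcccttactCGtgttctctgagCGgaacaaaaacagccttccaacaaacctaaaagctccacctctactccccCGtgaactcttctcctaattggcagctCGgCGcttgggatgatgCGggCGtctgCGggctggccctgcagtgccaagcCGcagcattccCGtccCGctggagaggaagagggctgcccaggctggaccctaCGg

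The Scn8a window held 38 CG dinucleotides and had a G and C content above that of 90.4% of the 32851 windows in the table. The Scn4b window held 26 and was 66.3% G and C. The Scn2b window held only 2, at 38.3% G and C, against a median of 7 CG dinucleotides over all windows. A second Scn8a start had 12 CG dinucleotides, the Scn1a window had 5 and the pair of Scn2a windows had 3 and 9. Short motifs were searched on both strands, and the last 2 named can share letters where they meet. The TATA box TATAAA was found in 1 of the 7 windows, a Scn2a window, and in 13.6% of all windows. Neither the TGACG core of the cAMP response element nor the E-box CACGTG was found in the 7 windows, and these were present in 20.8% and 7.15% of all windows.

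All values below are log2 array signal as deposited, and all differences are Sicd2-ISCL4 minus FVB-like. A feature was called where limma's p, adjusted by the Benjamini-Hochberg method over all features of that level, was under 0.05. The array files follow 2 naming schemes, called here array set A (replicates 1 to 4 of each group) and array set B (replicates 5 to 8). What separates the sets is not given in the sources used here. Array set was a term in every main fit, and the alternatives given at the end include fits without it. Array medians lay between 7.29 and 7.34 at gene level. In FVB-like mice the dentate granule cell transcription factor gene Prox1 had a mean of 8.39, and the CA1 gene Wfs1 had 10.1. No detection call was used, so a dim value can be background. Signal levels of different genes are not compared, since each is read by different probes.

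None of the 6 sodium channel genes was called at gene level, where 49 features, or 0.292% of all, passed. The number with an unadjusted p under 0.05 was 0 of 6, against 14.4% of all features. The groups overlapped for all 6 genes, and they did not overlap for 0.119% of all features. The median difference of the 6 was -0.06, beside 0.00 over all features, and the median size of a difference was 0.07 beside 0.06. Lower values in Sicd2-ISCL4 mice were found for 5 of the 6 genes and for 47.9% of all features. The number was 4 after quantile normalization, 4 without FVB-like replicate 2, 5 in array set A alone and 3 in array set B alone.

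**Figure D1:**
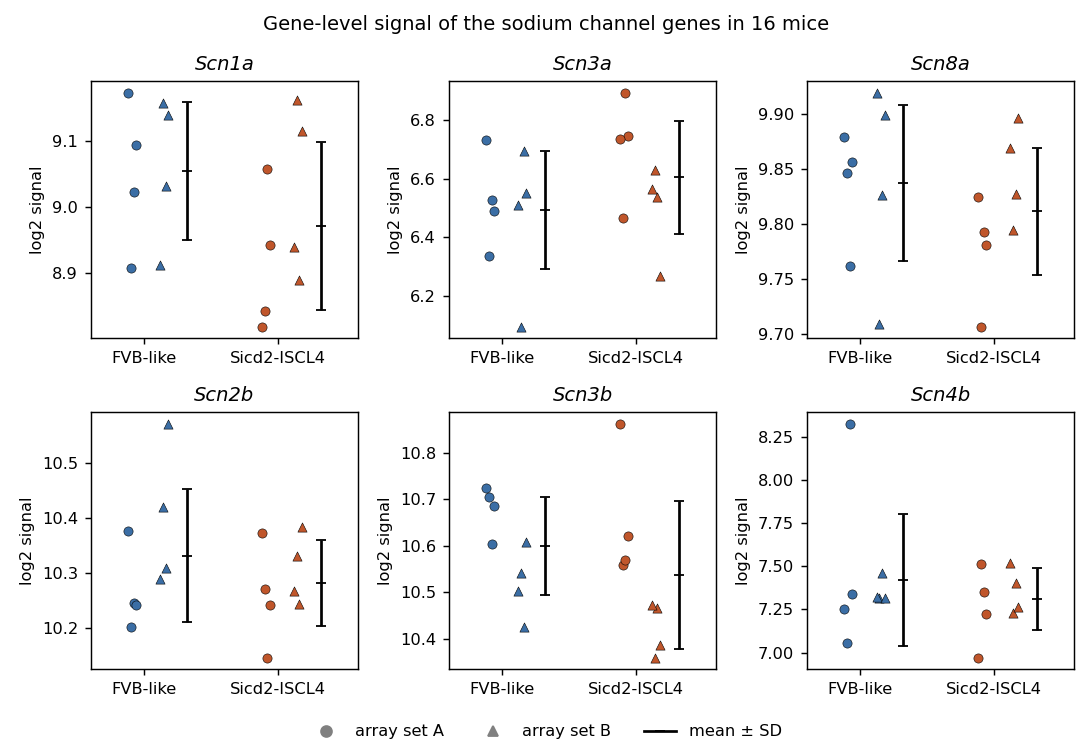
Gene-level log2 signal (vertical axis) of 6 sodium channel genes in each of 16 mice, by group, with circles for array set A, triangles for array set B and bars for mean ± SD of 8 mice. The groups overlap in every panel, Scn3b sits lower in array set B, and 1 FVB-like mouse stands at 8.33 for Scn4b.

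Among the alpha subunits, Scn8a had the tightest values. In FVB-like mice the lowest was 9.71, the median 9.85 and the highest 9.92, and in Sicd2-ISCL4 mice they were 9.71, 9.81 and 9.90. The ranges of the groups lay almost on top of each other, and 2 of 8 Sicd2-ISCL4 mice were above the FVB-like mean. The means were 9.84 ± 0.07 (SD, n = 8) in FVB-like mice and 9.81 ± 0.06 (SD, n = 8) in Sicd2-ISCL4 mice, a difference of -0.03 (SE 0.037, limma's adjusted p = 0.798). Its sign was not stable, at 0.0056 after quantile normalization. The 95% interval ran from 0.931-fold to 1.04-fold, and larger changes of Scn8a lie outside it. The spread of Scn8a between mice of a group and array set, with a residual SD of 0.063, stood at percentile 9.29 of all features.

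Scn1a ranged from 8.91 to 9.17 with a median of 9.06 in FVB-like mice, and from 8.82 to 9.16 with a median of 8.94 in Sicd2-ISCL4 mice. Of the Sicd2-ISCL4 mice, 3 lay below every littermate and none above, and the rest were among them. The difference was -0.08 (SE 0.057, limma's adjusted p = 0.536), or 0.944-fold with a 95% interval of 0.867 to 1.03. It was -0.13 in set A and -0.03 in set B. Markers of interneurons, the cells in which this channel is best known, covered 12 measured features of 11 genes. Values were higher in Sicd2-ISCL4 mice for 10 of the 12, with a median difference of 0.07. Of the 12, 0 were called, beside 0.292% of all features, and 4 had an unadjusted p under 0.05, beside 14.4% of all. The part of cell makeup in the Scn1a values was not tested. In a whole-tissue sample a change in cell number and a change in RNA per cell cannot be told apart.

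Scn3a was the only one of the 6 genes with a higher mean in Sicd2-ISCL4 mice. FVB-like mice ranged from 6.09 to 6.73 with a median of 6.52, and Sicd2-ISCL4 mice from 6.27 to 6.89 with a median of 6.597. Of the Sicd2-ISCL4 mice, 3 exceeded every littermate, and the ranges overlapped widely. The difference was 0.11 (SE 0.090, limma's adjusted p = 0.603), with a 95% interval from 0.948-fold to 1.24-fold. It was 0.19 in set A, 0.04 in set B and 0.06 without FVB-like replicate 5.

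Among the beta subunits, Scn2b ranged from 10.2 to 10.6 with a median of 10.3 in FVB-like mice and from 10.1 to 10.4 with a median of 10.3 in Sicd2-ISCL4 mice. The difference was -0.05 (SE 0.048, limma's adjusted p = 0.687), with a 95% interval from 0.900-fold to 1.04-fold. The highest value was that of FVB-like replicate 7, and the difference without this mouse was -0.02. The groups overlapped, with 1 Sicd2-ISCL4 mouse below every littermate and none above.

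Scn3b ranged from 10.43 to 10.72 with a median of 10.61 in FVB-like mice and from 10.36 to 10.86 with a median of 10.52 in Sicd2-ISCL4 mice. The Sicd2-ISCL4 mice spanned the whole littermate range, with 1 above and 2 below it. The difference was -0.06 (SE 0.046, limma's adjusted p = 0.570), with a 95% interval from 0.895-fold to 1.02-fold. Scn3b was the only one of the 6 genes that differed between the array sets: it was lower in set B by -0.20 (SE 0.046, adjusted p = 0.00269). Such a difference between sets was called for 46.4% of all features. The difference between the groups was -0.03 in set A and -0.10 in set B.

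Scn4b had the widest spread of the 6 genes, with a residual SD of 0.316, at percentile 92.0 of all features. Without FVB-like replicate 2 it was 0.156, at percentile 65.2, below the 0.202 of Scn3a in the same mice. FVB-like mice ranged from 7.06 to 8.33 with a median of 7.32, and Sicd2-ISCL4 mice from 6.97 to 7.52 with a median of 7.31. A single mouse, FVB-like replicate 2, accounted for the upper end, and the other 7 littermates reached at most 7.46. The difference was -0.11 (SE 0.143, limma's adjusted p = 0.767), with a 95% interval from 0.748-fold to 1.14-fold. Without FVB-like replicate 2 it was 0.024 (adjusted p = 0.932), so its sign came from 1 mouse. An exact permutation test, with the 4900 possible exchanges of mice made inside each array set, gave p = 0.618.

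**Figure D2:**
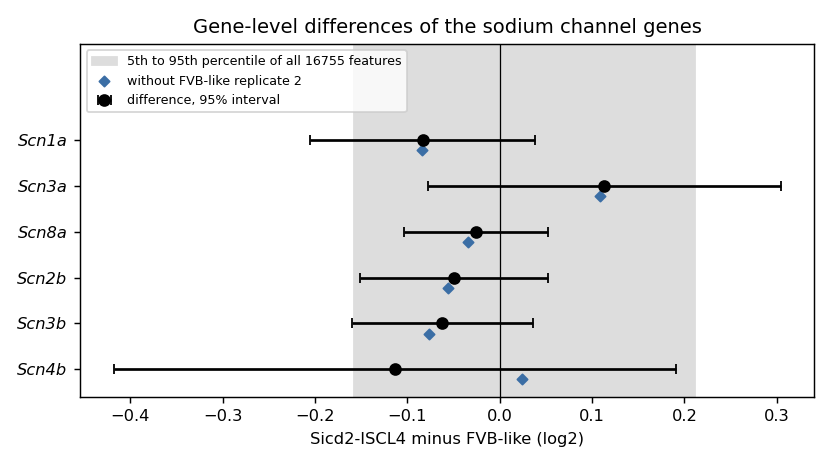
Difference between the groups in log2 signal (horizontal axis) for each of 6 genes, as points with 95% intervals from limma, diamonds for the value without FVB-like replicate 2, and a grey band for the 5th to 95th percentile of all 16755 features. All 6 points lie inside the band, every interval includes 0, and the point of Scn4b crosses 0 without that mouse, from -0.11 to 0.024.

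The interaction of group and array set was called for none of the 6 genes, with limma's adjusted p from 0.903 for Scn8a to 0.927 for Scn3b, and for 0.00597% of all features. The exact permutation test gave p between 0.171 for Scn1a and 0.618 for Scn4b, where the smallest value possible is 0.000408.

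The high Scn4b value of FVB-like replicate 2 was seen at every Scn4b probe set. At each of the 5 Scn4b probe sets this mouse was above all 15 others. It exceeded the mean of the other littermates by 0.59 to 1.52. The margin was narrow at probe set 4466089, where this mouse had 7.47 and the other 15 at most 7.44. At probe set 4873272 its signal was 9.85, and the other 15 mice reached at most 8.90. Scn4b is a gene strongly expressed in the striatum. Of 10 measured striatal markers, 8 were higher in this mouse than in every other. The dopamine receptor gene Drd2 exceeded the mean of the other littermates by 1.64, Rgs9, a regulator of dopamine signalling, by 1.24, and Penk, the enkephalin precursor, by 1.12. The exceptions were Drd1 and Serpina9. The mean of the 10 markers, each centred on its own mean, was 0.866 in this mouse and at most 0.278 in the others. It ranged from -0.204 to 0.866 in FVB-like mice and from -0.346 to 0.278 in Sicd2-ISCL4 mice. Of the 14 marker lists, those of the thalamus and of oligodendrocytes were also highest in this mouse. The thalamic mean was 0.446, with at most 0.309 in the others, and the oligodendrocyte mean was 0.394, with at most 0.329. The other 5 sodium channel genes differed there from the littermate mean by -0.10 to 0.04.

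Across the 16 mice, after removal of the mean of each group in each array set, Scn4b and the striatal mean correlated with Pearson's r = 0.807 (permutation p = 0.0397) and Spearman's rho = 0.615 (permutation p = 0.0536). Without FVB-like replicate 2, r was 0.378 (permutation p = 0.329), and without the 2 mice farthest from the median it was 0.418. Within array set A r was 0.895, and within array set B, where that mouse is absent, it was 0.199. The size of r thus depended on 1 mouse, and whether a weaker relation holds in the other 15 cannot be told from so few mice. The part of neighbouring tissue in the Scn4b signal was not tested, either in FVB-like replicate 2 or in the other mice.

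**Figure D3:**
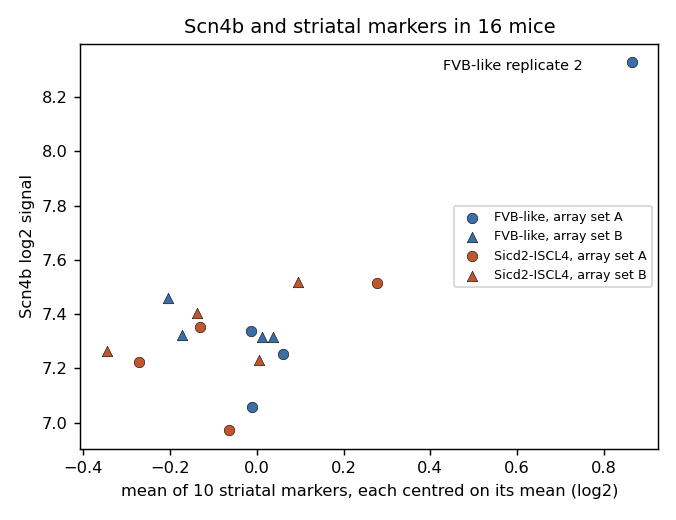
Scn4b log2 signal (vertical axis) against the mean of 10 striatal markers, each centred on its own mean (horizontal axis, log2), in 16 mice, with colour for group and shape for array set. FVB-like replicate 2 stands alone at 0.866 and 8.33, and the other 15 mice lie between 6.97 and 7.52.

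Single probe sets were compared to see whether a part of a transcript differed where the whole did not. None of the 64 sodium channel probe sets was called, where 47 probe sets, or 0.0249% of all, passed. An unadjusted p under 0.05 was reached by 3 of 64, against 10.2% of all probe sets. The groups overlapped at all 64, and they did not overlap at 0.0546% of all probe sets. Lower values in Sicd2-ISCL4 mice were found at 41 of 64, with a median of -0.04, beside 48.9% and 0.00 over all probe sets. That count was 40 after quantile normalization and 37 without FVB-like replicate 2. Probe sets of a gene share their transcript, so these counts are not of independent measurements. The position of a probe set within its transcript was not used here.

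Scn8a was read by 30 probe sets, 17 lower and 13 higher in Sicd2-ISCL4 mice, with a median of -0.02. The lowest was probe set 4692355, where FVB-like mice ranged from 8.09 to 8.91 and Sicd2-ISCL4 mice from 7.70 to 8.42. Of the Sicd2-ISCL4 mice, 4 lay below every littermate there, and 1 lay above the littermate mean. The difference was -0.40 (SE 0.135, limma's adjusted p = 0.371), with -0.29 in set A and -0.51 in set B. Probe set 5556176 followed at -0.30 (adjusted p = 0.522) and 5516151 at -0.24 (adjusted p = 0.476), and the highest, 4539149, stood at 0.16 (adjusted p = 0.559). The 30 probe sets thus lay on both sides of 0.

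Scn1a was lower at 7 of 8 probe sets, from -0.17 at 5019499 (limma's adjusted p = 0.652) to 0.14 at 5327492 (adjusted p = 0.749). Scn3a was higher at 3 of 4, with 0.26 at probe set 4910339 and a signal near 4, and 0.00 at 6.55 for probe set 4677477. Its smallest p was at 5247851, the brightest of the 4, with 0.08 (limma's adjusted p = 0.816). Of the 4 Scn3a probe sets only 4910339, the one with the highest difference, was under the 25th percentile of mean signal. Scn2b was lower at 3 of 6, from -0.17 at 5123597 to 0.04 at 5140850. None of these probe sets had an unadjusted p under 0.05.

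Scn3b was lower at 9 of 11 probe sets, with a median of -0.09. The smallest p was at 5390177, the brightest of the 11, where FVB-like mice had 12.66 ± 0.18 (SD, n = 8) and Sicd2-ISCL4 mice 12.50 ± 0.31 (SD, n = 8). The difference there was -0.16 (SE 0.062, limma's adjusted p = 0.414), with -0.03 in set A and -0.29 in set B. The highest was 0.11 at 4549097 (adjusted p = 0.598). Scn4b was lower at 4 of 5 probe sets, from -0.30 at 5365463 (adjusted p = 0.602) to 0.07 at 4466089, and at 2 of 5 without FVB-like replicate 2.

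**Figure D4:**
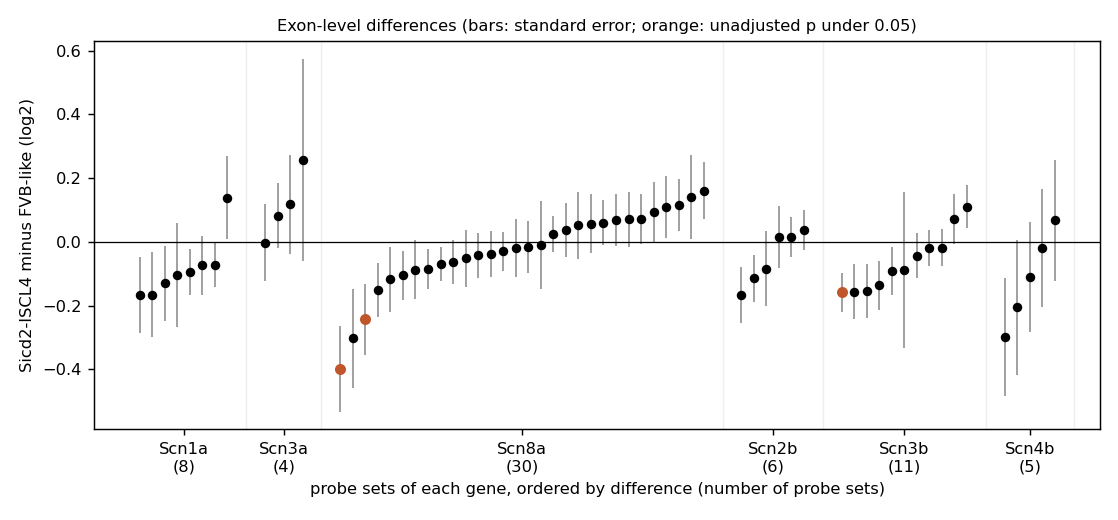
Difference between the groups in log2 signal (vertical axis) at each of 64 probe sets, grouped by gene and ordered by size, with bars for the standard error. Orange points are the 3 probe sets with an unadjusted p under 0.05, and the points of Scn8a run from -0.40 to 0.16 through 0.

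A probe set can also depart from the rest of its own gene. Each probe set was therefore compared after subtraction of the mean of the other probe sets of that gene on the same array, using genes with 3 or more probe sets whose mean signal was not under the 25th percentile. Of the 64 probe sets 62 could be tested so, and none was called, where 40 probe sets, or 0.0303% of all, passed. An unadjusted p under 0.05 was reached by 4 of 62, against 9.6% of all. They were 4692355, 5516151 and 4539149 of Scn8a, with relative differences of -0.39, -0.23 and 0.19, and 4549097 of Scn3b with 0.19. The smallest limma adjusted p among them was 0.429.

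Calls between the array sets were more frequent than between the groups. Between the sets 25 of 64 sodium channel probe sets were called, close to the 38.7% of all probe sets. In Scn8a 14 of 30 were called, 8 higher and 6 lower in set B. Probe set 4943868 was higher in set B by 0.73 and 5178828 lower by -0.60, although the gene-level value of Scn8a differed by only 0.04 (adjusted p = 0.438). In Scn3b 6 of 11 were called, 5 of them lower in set B, with -0.76 at probe set 5058715. None of the Scn3a or Scn4b probe sets was called between the sets. Each set holds 4 mice of each group, so this difference does not coincide with the groups.

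The 6 genes did not vary together in a way that passed a test. Over 15 pairs, with the mean of each group in each array set removed, 0 had an adjusted permutation p under 0.05, and 2 had an unadjusted one. The largest coefficient was that of Scn2b and Scn3b, with Pearson's r = 0.538 (permutation p = 0.0688, adjusted p = 0.344) and Spearman's rho = 0.371 (permutation p = 0.226), and r fell to 0.190 without the 2 mice farthest from the median. Scn3b and Scn4b had r = -0.497 (permutation p = 0.0284, adjusted p = 0.344) with -0.632 in set A and 0.185 in set B. Scn8a and Scn4b had r = -0.443 (permutation p = 0.0486, adjusted p = 0.344), and -0.230 without FVB-like replicate 2. The neighbours Scn2b and Scn4b had r = -0.237 (permutation p = 0.355).

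The genes most like each sodium channel gene over the 16 mice were taken by the same r among 14995 features with 1 symbol. The best of so many is high by selection, and r is given as a description. For Scn2b they were Slc35f4 (0.941), Atm (0.930) and Shprh (0.923), and for Scn1a they were Myo5a (0.928), Tbl1xr1 (0.892) and Mycbp2 (0.865). For Scn8a they were Asb11 (0.879), Plxna2 (0.859) and 9430015G10Rik (0.859). For Scn3a they were C130073F10Rik (0.881), Dnmt3b (0.880) and Tprg (0.864), and for Scn3b they were Ptgs2 (0.877), Paqr8 (0.857) and Prkar1b (0.856). For Scn4b they were Dach1 (0.901), the striatal gene Ppp1r1b (0.895) and Cd4 (0.887), and without FVB-like replicate 2 these coefficients were 0.736, 0.766 and 0.706.

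Scn8a was also set beside its neighbours on chromosome 15, where 9 of 575 features, or 1.57%, were called, beside 0.292% of all. Among the 10 measured genes on each side of it in RefSeq order, 1 was called, the immediate early transcription factor gene Nr4a1, 5 places on in the measured order, with a difference of 0.48 (SE 0.075, limma's adjusted p = 0.0129). It was called with each of the 16 arrays left out in turn. The adjacent measured genes were Slc4a8, a sodium bicarbonate transporter gene, at 0.07 (adjusted p = 0.334) and Ankrd33 at 0.04 (adjusted p = 0.890). The median of the 20 neighbours was 0.02. The bounds of the donor segment were not used here, and whether Scn8a or these neighbours lie inside that segment was not tested. Around Scn1a, Scn3a, Scn2b, Scn3b and Scn4b, 0 of 20 or 21 neighbouring features were called.

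**Figure D5:**
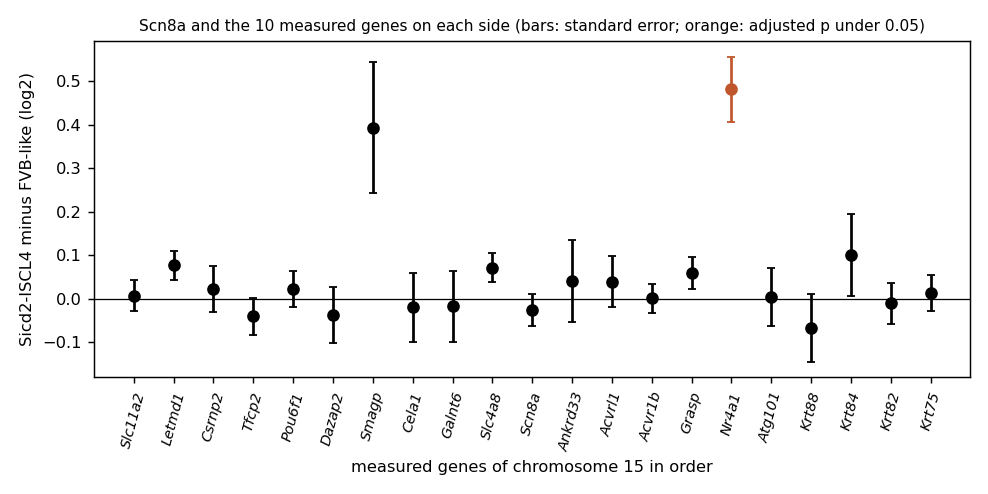
Difference between the groups in log2 signal (vertical axis, bars for the standard error) for Scn8a and the 10 measured genes on each side of it, in their order on chromosome 15. Nr4a1, in orange at 0.48, is the only called gene, and Scn8a sits at -0.03.

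Other genes of sodium channel function were compared as lists. Of the remaining channel genes 5 were measured, Scn7a, Scn9a, Scn10a, Scn11a and the sodium leak channel gene Nalcn. None was called, beside 0.292% of all features, and 0 had an unadjusted p under 0.05. Scn11a differed by 0.07 (limma's adjusted p = 0.495) and Nalcn by 0.03 (adjusted p = 0.874). Of 15 measured genes for proteins that bind the channels or anchor them at the axon initial segment, with 16 features, none was called and the median was -0.01. Cntn1, a cell adhesion protein that binds sodium channels, differed by -0.12 (adjusted p = 0.206). Its gene lies on chromosome 15, the chromosome of Sicd2. Fgf13, an intracellular fibroblast growth factor homolog that binds the channel's tail, differed by -0.13 (adjusted p = 0.221). An unadjusted p under 0.05 was reached by 4 of these 16 features, beside the 14.4% of all.

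Of 14 measured kinases, phosphatases, ligases and secretase subunits that act on the channels none was called, and the median was -0.04. Over all features 0.292% were called. An unadjusted p under 0.05 was reached by 3 of the 14, beside 14.4% of all features. Ncstn, a subunit of the gamma-secretase that cleaves beta subunits, differed by -0.13 (limma's adjusted p = 0.109), and Ppp3ca, the calcineurin catalytic subunit, by -0.10 (adjusted p = 0.121). Of 12 measured regulators of channel expression and splicing none was called, and 3 had an unadjusted p under 0.05. Celf4, an RNA-binding protein, differed by 0.09 (adjusted p = 0.263) and Pum2, a translational repressor, by -0.08 (adjusted p = 0.303). Scnm1, the splicing modifier of Scn8a in mice, differed by 0.11 (adjusted p = 0.337). Of 7 measured pump and exchanger genes, with 8 features, none was called, and 1 feature had an unadjusted p under 0.05. Slc8a1, a sodium-calcium exchanger, differed by -0.21 (adjusted p = 0.214) at 1 feature and by -0.02 at the other. Atp1b1, a sodium pump subunit, differed by -0.05 (adjusted p = 0.400).

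Marker lists of the cells that a hippocampal dissection can hold were compared in the same fit. Oligodendrocyte markers had lower values in Sicd2-ISCL4 mice for 13 of 14 features, with a median of -0.18, 0 called and 8 with an unadjusted p under 0.05, beside the 14.4% of all features. Without FVB-like replicate 2 these were 12 lower, a median of -0.15, 0 called and 6 with such a p, beside 12.1% of all. The centred mean of the list ranged from -0.06 to 0.39 in FVB-like and from -0.29 to 0.22 in Sicd2-ISCL4 mice. Striatal markers were lower for 9 of 10, with a median of -0.19, but for 7 of 10 with -0.06 without FVB-like replicate 2, and none was called. Meningeal markers were lower for 8 of 8, with a median of -0.12, or for 7 of 8 with -0.13 without that mouse. Choroid plexus ones were lower for 6 of 6, with -0.18, or -0.14 without that mouse, and none of either list was called. Pyramidal cell markers were higher for 6 of 8 and dentate granule cell markers lower for 4 of 6, with medians of 0.02 and -0.06. Without that mouse these were 6 of 8 and 5 of 6, with medians of 0.04 and -0.06. General neuronal markers were lower for 5 of 8, or 4 of 8 without it. Oligodendrocyte precursor markers were lower for 5 of 6, endothelial ones for 4 of 6 and astrocyte ones for 3 of 7, with 0 called. Microglial ones were lower for 3 of 8, or 2 of 8 without that mouse, with 0 called. Thalamic markers were higher for 5 of 6, or 6 of 6 without it, with 0 called. Cortical markers were lower for 6 of 8, with a median of -0.01, or -0.03 without that mouse. Of these 8 markers 1 was called, beside 0.292% of all features. It was Fezf2, a transcription factor gene of deep-layer projection neurons, with a difference of 0.22 (limma's adjusted p = 0.0345). That call was lost with any of 14 of the 16 mice left out, with adjusted p up to 0.0852 and differences of 0.20 to 0.24. The part of cell makeup in the sodium channel values was not tested.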

How the data were processed

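Hippocampal RNA of 16 mice was measured on exon arrays. The deposited values are on the log2 scale, and RMA, Partek 6.6 and build mm9 are named per the submitters' processing notes, with no role stated for any of them. Between-array normalization of this kind removes shifts that most genes share. Gene symbols came from the platform annotation, and chromosomes, gene order and promoters from RefSeq (GRCm38.p6). This build is other than that of the files, so no coordinates are given beyond those of the promoter windows shown, which are in GRCm38.p6.

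Groups and replicate numbers came from the sample titles. Values were fitted with limma (3.58.1, R 4.3.3) with group and array set, and adjusted over all features of a level. Relative exon values were fitted likewise. Correlations used 100000 permutations within group and array set. Figures were drawn with matplotlib (3.10.9). The fits and the permutation of correlations were tried on simulated data with independent noise for each array, and the outcome is not given here. The members and lists were chosen with earlier results of these data known.

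Named were the 6 genes, for each its probe sets with the highest and lowest difference and the smallest p, the 3 most correlated genes, and the 2 genes with the smallest p of each pathway list. Nr4a1, Scnm1, Slc4a8, Ankrd33, single marker genes, probe sets 5516151, 5556176 and 4873272 and the probe sets named between array sets were chosen after their values were seen. Precision is limited by the number of arrays, with a median standard error of 0.062 over all gene-level differences. Same-numbered mice of the groups correlated, after removal of group and array set means, at -0.05 to 0.25, above 0.1 in 6 of 8 pairs, and the numbers were not taken to pair the mice. Other normalizations, a signal filter, single array sets, the replicate block and each array left out were tried.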

Additional observations from a re-analysis of the deposited data

Results flagged for a closer look

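The Scn4b gene-level signal of FVB-like replicate 2 was 8.33, while the other 7 littermates lay between 7.06 and 7.46. Its gap to the next mouse was 0.682 of the range of its group, above Dixon's 95% critical value for 8 samples. Of 38 groups of values examined, from the 6 genes and their 13 named probe sets, this was the 1 that passed, and chance flags about 1 in 20.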

How the results depend on the processing

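No sodium channel gene, probe set or relative exon value was called under any of the alternatives run: no array set term, the replicate block, quantile normalization, median centring, the filter at the 25th percentile of mean signal, each array set alone, and each array left out. With the replicate block, 0 of the 6 genes were called among 18 features in all, against 49 without it. Of the 8 FVB-like mice, 6 correlated best with the Sicd2-ISCL4 mouse of the same number. Only the 4 Sicd2-ISCL4 mice of the same array set were compared. This is a hint from the data and not from the design. Over all features the counts moved more: at gene level they were 15 without the array set term, 84 with the filter, 0 and 5 in sets A and B, and 19 to 66 with 1 array left out. At exon level they were 23, 99, 1, 13 and 26 to 47, with 30 under the block, against 47. Relative exon values gave 26 without the array set term and 6 and 12 in the sets, against 40.

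The sign turned in 2 genes. Scn8a, at -0.03, was 0.0056 with quantile normalization, 0.0081 in set B and 0.014 by the median of its probe sets. Scn4b, at -0.11, was 0.000898 in set B, and -0.17 to 0.024 with 1 array left out, the last without FVB-like replicate 2. The cause was not tested. With 1 array left out Scn1a was -0.11 to -0.06, Scn3a 0.06 to 0.16, Scn8a -0.05 to -0.01, Scn2b -0.07 to -0.02 and Scn3b -0.10 to -0.05. The lists and spreads without FVB-like replicate 2, and Nr4a1 and Fezf2 with each array left out, were chosen after seeing the data. No pair of genes passed in either array set. Scn2a had no feature to fit.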
